A study of Mus musculus with 8 samples.

Results

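The 7 transcripts described here belong to Jade3, Kdm1a, Hdac1, Zmym3, Ep300 and Ep400, chromatin genes linked to Jade2 or to histone acetylation. They are every row with 1 of these 6 gene symbols in a table of 1679 transcripts from 1404 loci. No row without a symbol shares a locus with them. The table compares hippocampus of C57BL/6 mice aged 8 weeks, with 4 libraries from wild-type controls and 4 from Jade2-knockout mice. The sources used here do not give the deleted part of Jade2, the sex of the mice or whether each library came from a separate animal, so errors describe the spread between libraries.

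The deposited table is a selection on this same contrast, and it is 1.60% of the 104721 transcripts that its adjusted p-values imply. Its largest unadjusted p is 0.0498 and its smallest absolute log2 fold change is 1.00, both in the authors' deposited table. These values chose the 7 transcripts, so their differences are described and not tested. Abundances are taken as FPKM (fragments per kilobase of transcript, scaled to the fragments of the library), and read depth is unknown because no counts were used. Transcripts outside the list, the main coding transcripts of Kdm1a, Hdac1 and Ep300 among them, were not analysed here.

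JADE proteins are scaffolds that hold the acetyltransferase HBO1 (Kat7) and direct it to histones. JADE2 has also been described as a ubiquitin ligase for LSD1, the demethylase encoded by Kdm1a, which removes methyl groups from histone H3 in a complex with CoREST and the deacetylases HDAC1 and HDAC2. ZMYM3 is a zinc finger protein found with that complex. The coactivator p300 (Ep300) acetylates histones at active enhancers, and EP400 is the ATPase of the TIP60 acetyltransferase complex, which also exchanges histone variants.

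The annotation of these transcripts comes first, because a symbol alone hides what was measured. All 7 have identical coordinates in GENCODE M21 on GRCm38 (mm10). Of the 7, 4 are protein coding (Jade3-201, Zmym3-209, Ep400-201 and Ep400-204) and 3 are not (Kdm1a-205, Hdac1-207 and Ep300-202). The 3 non-coding transcripts were each higher in the knockout, and 3 of the 4 coding ones were lower. The median log2 difference of the 7, knockout minus control, was 0.50, against -0.52 over all listed transcripts. Small changes were left out of the list, so the sign of a median follows the direction with more transcripts. Of the 7, 4 were higher, and over the list 815 were higher and 864 lower. The median absolute difference was 0.744 for the 7 and 1.055 over the list. The non-coding ones are fragments that span a border between an exon and an intron, so none of them is the messenger RNA of its gene.

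The coding sequences of the listed Ep400 transcripts differ by a single cassette exon, and this exon is shown because it is their one difference in coding sequence. Exon 4 of the 52 exons of Ep400-201 (mm10, chr5:110740182-110740289, minus strand) is 108 bases or 36 codons long, and Ep400-204 joins its neighbours directly. The coding parts are 9105 and 8997 bases, so the reading frame is kept. The transcripts also differ at their ends, where Ep400-204 has 190 bases outside Ep400-201 and Ep400-201 has 5 bases outside Ep400-204. The exon is present in 4 annotated transcripts of the gene, and Ep400-204 is the 1 that skips it. In the lines below, read 5′ to 3′ on the transcript, capitals mark the cassette exon, and the lower-case letters are the 20 bases of each neighbouring exon.
Ep400-201: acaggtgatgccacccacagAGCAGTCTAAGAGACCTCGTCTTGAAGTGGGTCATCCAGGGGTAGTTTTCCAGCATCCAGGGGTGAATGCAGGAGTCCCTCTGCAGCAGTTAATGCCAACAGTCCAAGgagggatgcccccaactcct
Ep400-204: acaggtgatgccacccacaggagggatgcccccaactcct

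The exon-intron borders carried by the other 3 listed fragments are shown because RNA spliced at such a border gives no read across it. Reads across these borders were not counted here. Capitals mark 20 exon bases and lower-case letters 30 intron bases, again 5′ to 3′ on the transcript. They lie at chr4:136552569-136552618 for Kdm1a, chr4:129524301-129524350 and chr4:129522933-129522982 for Hdac1, all on the minus strand, and chr15:81586703-81586752 on the plus strand for Ep300. The intron before the exon ends in ag in the Kdm1a line and the first Hdac1 line, and the intron after the exon begins with gt in the second Hdac1 line and the Ep300 line.
Kdm1a-205, intron into exon: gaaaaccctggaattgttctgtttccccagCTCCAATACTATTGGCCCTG
Hdac1-207, intron into exon: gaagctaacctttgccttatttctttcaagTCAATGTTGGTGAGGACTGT
Hdac1-207, exon into intron: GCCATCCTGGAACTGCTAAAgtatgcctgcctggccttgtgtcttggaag
Ep300-202, exon into intron: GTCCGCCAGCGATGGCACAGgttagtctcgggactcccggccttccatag

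**Figure D1:**
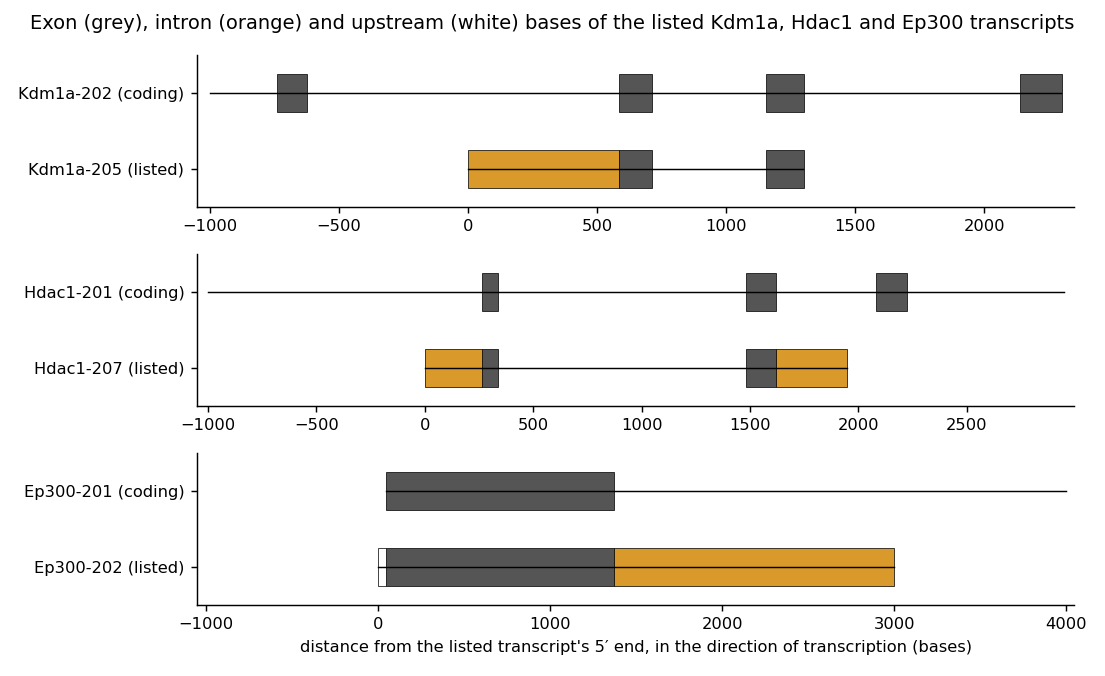
Structure of the listed Kdm1a-205, Hdac1-207 and Ep300-202 below the nearest part of a coding transcript of the same gene, with distance from the listed transcript's 5′ end in bases on the x axis. Grey boxes are exons of the coding transcript, and orange boxes the parts of its introns inside the listed transcript (584, 589 and 1625 bases). The white box is 46 bases upstream of the coding transcript, and lines join exons.

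Single models of the targeted gene separated the groups, and their sum did not. Jade2-203, an annotated coding transcript of Jade2, was listed at 0 in all 4 knockout libraries and stood at 2.66, 2.66, 1.41 and 5.05 FPKM in control replicates 1 to 4. Of the other 4 listed models of the locus, MERGE.3721.1, MERGE.3721.3 and MERGE.3721.4 averaged 8.00, 4.31 and 1.85 FPKM in the knockout and were listed at 0 in every control. MERGE.3721.8 averaged 8.09 FPKM over the controls and reached at most 0.00225 FPKM in a knockout library. The sum of the 5 models was 14.2 ± 4.71 FPKM over knockouts and 11.03 ± 5.28 FPKM over controls (SD, n = 4 per group), with overlapping ranges. Median abundance over all listed transcripts lay between 0.773 and 0.900 FPKM per library, and no library's values were identical to another's. Because the list is selected, the absence of a hippocampal marker from it says nothing about the tissue. Of 14 hippocampal neuron markers, Dock10 and Mpped1 had listed transcripts, which summed to between 58.0 and 89.8 FPKM in knockout libraries and between 18.9 and 83.2 FPKM in controls.

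Of the 7 transcripts, 4 had groups that did not overlap, 3 of them higher in the knockout (Kdm1a-205, Hdac1-207 and Ep300-202) and 1 lower (Ep400-204). Over all listed transcripts this share was 36.1% in either direction, 19.7% for higher and 16.4% for lower in the knockout. The list was selected on the same contrast, so nothing is read from the count. The authors' deposited table puts the adjusted p of none of the 7 under 0.05, and that of 0.893% of all its transcripts. The adjusted p was 0.379 for Ep400-204, 0.868 for Ep400-201 and 0.888 for the other 5. The unadjusted p in that table was 0.00286 for Hdac1-207, 0.00779 for Kdm1a-205, 0.0115 for Ep300-202 and 0.00233 for Ep400-201.

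**Figure D2:**
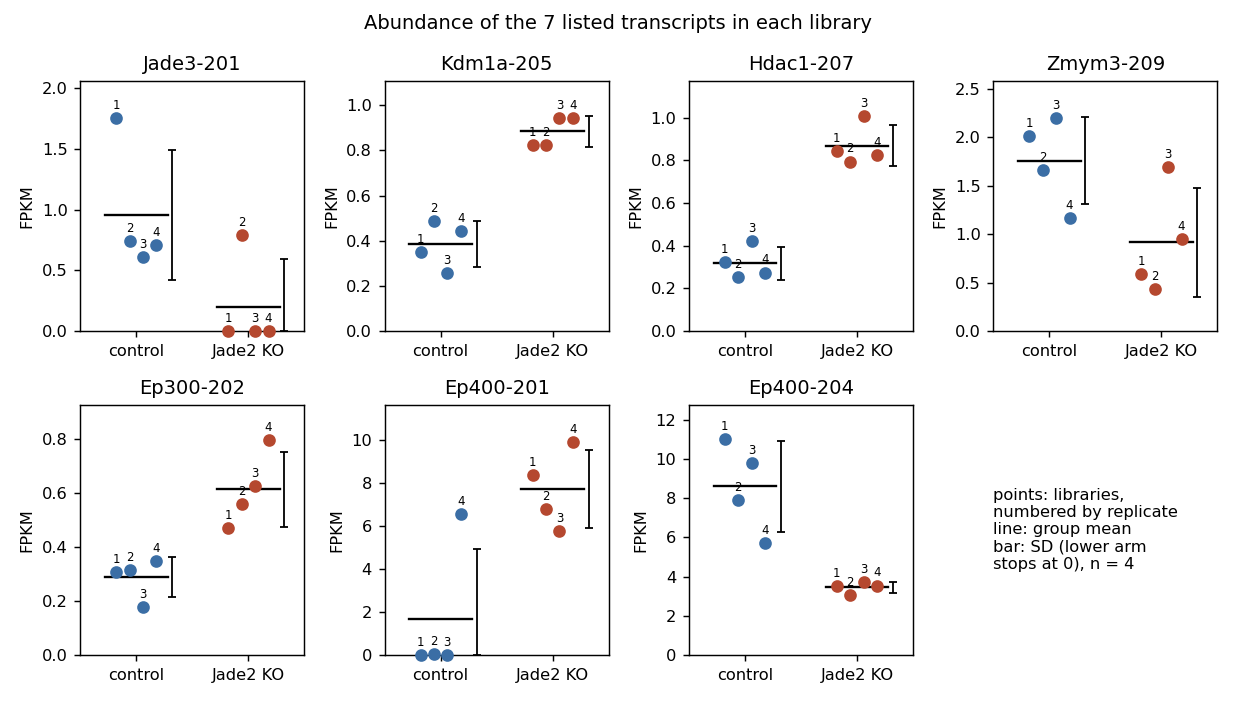
Abundance in FPKM (y axis, from 0) of each of the 7 listed transcripts in the control and Jade2-knockout libraries, with points numbered by replicate, a line at the group mean and a bar of 1 SD (n = 4 per group). The groups do not overlap for Kdm1a-205, Hdac1-207, Ep300-202 and Ep400-204, while knockout replicate 2 and control replicate 1 of Jade3-201 and control replicate 4 of Ep400-201 lie apart from their groups.

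Jade3 encodes a paralog of JADE2 that also scaffolds HBO1. Jade3-201 (chromosome X, 20460527 to 20517896, plus strand) is a coding model of 2472 bases with no bases or splice junctions of its own. Every base lies in exons of the longer Jade3-202, so its value depends on how reads were divided between nested models, which was not tested. In the knockout libraries it was listed at 0 in replicates 1, 3 and 4 and stood at 0.791 FPKM in replicate 2. Control replicates 1 to 4 stood at 1.75, 0.742, 0.613 and 0.708 FPKM. The groups overlapped, because knockout replicate 2 was above control replicates 2, 3 and 4, and control replicate 1 was far above the other controls. Without knockout replicate 2 the groups did not overlap. On the log2(FPKM + 0.5) scale used for every difference given here, the knockout mean minus the control mean was -1.14 (SE 0.414, n = 4 per group). This size is set in part by the added constant, as it became -2.49 with a constant of 0.1. The authors' deposited table gives Jade3-201 a log2 fold change of -6.28 and an unadjusted p of 0.00355.

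Zmym3-209 (chromosome X, 101404384 to 101419914, minus strand) is a coding transcript of 5564 bases and 25 exons, of which 54 bases belong to no other Zmym3 transcript. Knockout replicates 1 to 4 stood at 0.588, 0.431, 1.70 and 0.949 FPKM. Control replicates 1 to 4 stood at 2.01, 1.66, 2.19 and 1.17 FPKM. The controls were mostly higher, but knockout replicate 3 was above control replicates 2 and 4. Knockouts averaged 0.917 ± 0.564 FPKM and controls 1.76 ± 0.451 FPKM (SD, n = 4 per group), a log2 difference of -0.73 (SE 0.312). Without knockout replicate 3 the groups separated and the difference was -0.97. The unadjusted p of Zmym3-209 in the authors' deposited table, 0.0269, is the largest of the 7.

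Jade3 and Zmym3 are both X-linked, and both listed transcripts were lower in the knockout. Of 46 listed X-linked transcripts, 19 were higher and 27 lower, against 815 higher and 864 lower over the whole list. Among the other chromatin transcripts described below, X-linked Kdm5c-201 and autosomal Elp3-203 and Hdac9-203 were, like Jade3-201, listed at 0 in knockout replicates 1 and 4. A value of 0 in at least 1 library was found in 691 of all listed transcripts. No transcript of Xist, Tsix, Ddx3y, Uty, Eif2s3y or Kdm5d is in the list.

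The higher Kdm1a row is a fragment near the 3′ end of the gene. Kdm1a-205 (chromosome 4, 136551873 to 136553172, minus strand) is 858 bases long and annotated as a retained intron. It starts inside intron 17 of the 20-exon coding transcript Kdm1a-202, holds 584 of the intron's 1207 bases, and continues through the next exon into the one after. Intron sequence makes up 68.1% of it, and 532 bases are in no other Kdm1a transcript. Knockout replicates 1 to 4 stood at 0.824, 0.824, 0.943 and 0.945 FPKM. Control replicates 1 to 4 stood at 0.349, 0.487, 0.259 and 0.441 FPKM. Every knockout library was above every control library, and the knockout values varied little among themselves. The mean was 2.30 times the control mean, with 0.884 ± 0.0691 and 0.384 ± 0.101 FPKM (SD, n = 4 per group) and a log2 difference of 0.65 (SE 0.0916). The gene Luzp1 overlaps this stretch on the opposite strand but shares no exon base with Kdm1a-205. The sources used here do not say whether counting used strand.

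Hdac1 encodes the deacetylase that works with LSD1. Hdac1-207 (chromosome 4, 129522638 to 129524584, minus strand) is 803 bases long, also annotated as a retained intron, and 73.3% of it is intron sequence. Only 142 of its bases are in no other Hdac1 transcript. It holds 264 bases of the end of intron 3, exons 4 and 5 spliced together, and 325 of the 458 bases of intron 5 of the coding transcript Hdac1-201. Knockout replicates 1 to 4 stood at 0.846, 0.795, 1.01 and 0.824 FPKM. Control replicates 1 to 4 stood at 0.322, 0.252, 0.423 and 0.275 FPKM. The groups did not overlap, and replicate 3 was the highest library in each group. The knockout mean of 0.868 ± 0.0953 FPKM was 2.73 times the control mean of 0.318 ± 0.0760 FPKM (SD, n = 4 per group), a log2 difference of 0.74 (SE 0.0816). RefSeq lists a pseudogene copy, Hdac1-ps, on chromosome 17, and the sources used here do not say how reads shared with it were counted.

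Ep300-202 (chromosome 15, 81585351 to 81588347, plus strand) is a single unspliced exon of 2997 bases at the start of the gene. It covers the 1326 bases of exon 1 of the coding transcript Ep300-201, of which 94 bases are coding, and runs 1625 bases into intron 1. Knockout replicates 1 to 4 stood at 0.472, 0.560, 0.627 and 0.798 FPKM. Control replicates 1 to 4 stood at 0.309, 0.315, 0.179 and 0.347 FPKM. All knockout libraries were above all controls, with a narrow gap between the lowest knockout and the highest control. Knockouts averaged 0.614 ± 0.138 FPKM and controls 0.287 ± 0.0743 FPKM (SD, n = 4 per group), a ratio of 2.14 and a log2 difference of 0.50 (SE 0.113). Its log2 fold change in the authors' deposited table, 1.01, is the closest of the 7 to the size needed for listing. The microRNA gene Gm23880 lies on the same strand and shares 54 exon bases with Ep300-202. How reads shared with Gm23880 or Ep300-201 were divided was not tested.

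The direction of the 3 fragments can be set beside that of all listed transcripts of their kind. Of 206 listed retained-intron transcripts 123 had the higher mean in the knockout and 83 in the control, and of 708 protein-coding ones 340 were higher and 368 lower. The summed level of these 206 ranged from 296 to 317 FPKM in the knockout libraries and from 214 to 274 FPKM in the controls. Kdm1a-205 and Hdac1-207 are 2 of the 206, and Ep300-202 is classed as a processed transcript. The 80 listed processed transcripts were 32 higher and 48 lower. These transcripts were listed for a difference on the same contrast, so their sums describe the list and not the intron level of a library. In bulk tissue, fewer cells of a type and less RNA per cell cannot be told apart.

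At Ep400 the sum of both listed transcripts overlapped between the groups, while its division between them did not. Ep400-201, with the cassette exon, had 8.36, 6.80, 5.79 and 9.90 FPKM in the knockout replicates in order. In the control replicates it had 0.00641, 0.0585, 0.00863 and 6.57 FPKM. Controls 1 to 3 were close to 0, while control replicate 4 was at the level of the knockout libraries, so the groups overlapped. The log2 difference was 3.01 (SE 0.952, n = 4 per group), and 3.94 without control replicate 4. The groups of Ep400-201 did not overlap without control replicate 4 or without knockout replicate 3, the lowest of its group.

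Ep400-204, which skips the exon, showed the reverse. The knockout replicates in order had 3.51, 3.05, 3.72 and 3.54 FPKM. The control replicates in order had 10.999, 7.88, 9.80 and 5.73 FPKM. No knockout library reached the lowest control, which was again replicate 4. The control mean of 8.60 ± 2.31 FPKM was 2.49 times the knockout mean of 3.46 ± 0.288 FPKM (SD, n = 4 per group), a log2 difference of -1.17 (SE 0.202). Its unadjusted p of 0.000474 in the authors' deposited table is the smallest of the 7 and ranks 43rd in the list.

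Summed over both transcripts, Ep400 had 11.9, 9.85, 9.51 and 13.4 FPKM in the knockout replicates in order. The sums in the control replicates were 11.005, 7.94, 9.81 and 12.3 FPKM. The ranges overlapped. The means were 11.2 ± 1.84 and 10.3 ± 1.85 FPKM (SD, n = 4 per group), a log2 difference of 0.12 (SE 0.170), which is smaller than its error. The share of the sum held by Ep400-201 was 70.4%, 69.1%, 60.9% and 73.7% in knockout replicates 1 to 4. In control replicates 1 to 3 it was 0.0582%, 0.737% and 0.0880%, and in control replicate 4 it was 53.4%. Every control share was below every knockout share, with control replicate 4 far from the other controls. Other Ep400 transcripts, among them 3 more with the exon, are outside the list, so the sum is not the level of the gene. Ep400-201 has no base or junction of its own, so its value depends on how reads were divided between overlapping models, which was not tested. The only feature of its own in Ep400-204 is the skipping junction. The shares are of these models, and inclusion of the exon was not measured.

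**Figure D3:**
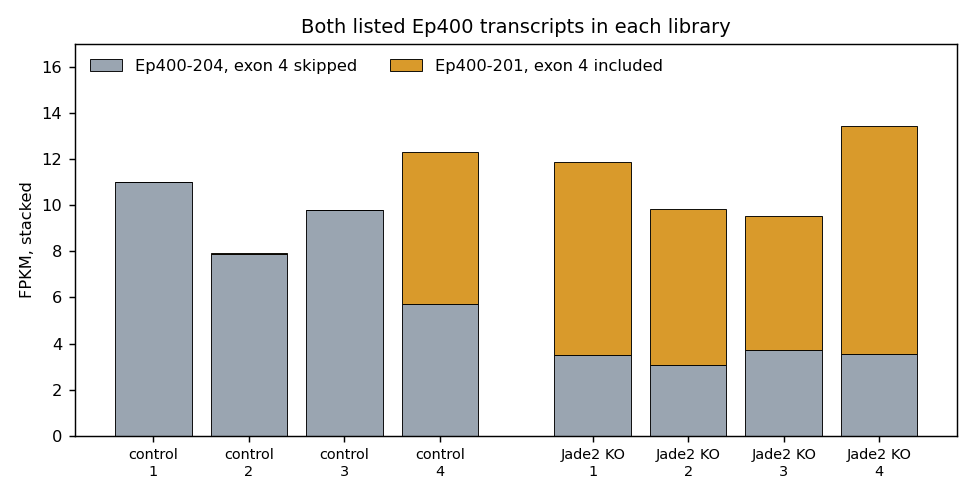
Stacked FPKM of Ep400-204 (grey, cassette exon skipped) and Ep400-201 (orange, cassette exon included) in each control and Jade2-knockout library. The stacks reach 7.94 to 12.3 FPKM in controls and 9.51 to 13.4 FPKM in knockouts, and orange makes up 60.9% to 73.7% of each knockout stack, 53.4% of control replicate 4 and under 1% of the other controls.

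The order of abundance also differed between the groups. In the knockout it ran Ep400-201, Ep400-204, Zmym3-209, Kdm1a-205, Hdac1-207, Ep300-202 and Jade3-201. The ranges of the third to the seventh overlapped from each to the next, so only the Ep400 transcripts were set apart from their neighbours in this order. Between transcripts further apart in it, Kdm1a-205 lay wholly above Ep300-202, and Kdm1a-205 and Hdac1-207 lay wholly above Jade3-201. By control mean it ran Ep400-204, Zmym3-209, Ep400-201, Jade3-201, Kdm1a-205, Hdac1-207 and Ep300-202. The place of Ep400-201 rests on control replicate 4, because in control replicates 1, 2 and 3 it was the lowest of the 7. By mean, the 3 fragments Kdm1a-205, Hdac1-207 and Ep300-202 were lowest, their ranges overlapped from each to the next, and each control value of them was below every control value of Jade3-201. Spread within the knockout was smallest for Kdm1a-205 (coefficient of variation 7.82%), Ep400-204 (8.33%) and Hdac1-207 (10.98%) and largest for Jade3-201 (200%).

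The other genes of these complexes were looked up in 8 lists of 129 chromatin genes. Of the 129, 19 had a listed transcript, or 14.7%, 9 of them with a higher and 13 with a lower one, and 3 with both. Of the 21924 protein-coding genes of GENCODE M21, 4.34% had a listed transcript, 2.30% a higher and 2.33% a lower one. The 6 genes and Jade2 were chosen for being listed, and without them the count was 12 of 122, or 9.84%. Those 12 genes had 14 listed transcripts, 5 higher and 9 lower in the knockout. The gene lists were chosen with earlier results of these data known. The 21924 genes were not limited to those expressed in hippocampus or matched for number of transcripts, so nothing is read from the shares.

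Among the 10 genes of the JADE and HBO1 complex only Jade2 and Jade3 were listed, with no transcript of Kat7, Ing4, Ing5 or Meaf6. Among 17 LSD1-CoREST genes only Kdm1a, Hdac1 and Zmym3 were listed, and among 14 genes of p300, CBP and CREB cofactors only Ep300. The TIP60-EP400 complex had 4 of 19, with higher transcripts of 3 genes, lower transcripts of 3 and both for Ep400 and Morf4l1. Morf4l1 encodes a chromodomain subunit of the complex. Morf4l1-212 had 2.03, 1.18, 1.87 and 1.78 FPKM in the knockout replicates in order, 0 in control replicates 1 to 3 and 1.29 FPKM in control replicate 4. Morf4l1-202 averaged 5.09 ± 1.22 FPKM in knockout libraries and 11.9 ± 5.34 FPKM in controls (SD, n = 4 per group), with control replicate 4 lowest of the controls at 5.32 FPKM. Both Morf4l1 transcripts thus placed control replicate 4 nearest to the knockouts, as at Ep400. Brd8-201, of a bromodomain subunit, averaged 0.985 ± 0.448 and 4.23 ± 2.53 FPKM in knockout and control (SD, n = 4 per group) and was at 0.977 FPKM in control replicate 4.

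Of the other acetyltransferases, 3 of 14 were listed. Kat6b-205, a retained-intron fragment, averaged 1.31 ± 0.510 FPKM in knockout libraries and 0.424 ± 0.243 FPKM in controls (SD, n = 4 per group). Elp3-203, of the catalytic subunit of Elongator, had 0, 5.47, 1.59 and 0 FPKM in the knockout replicates in order and between 4.49 and 7.93 FPKM in the controls. Atat1-208, of the tubulin acetyltransferase, averaged 0.194 ± 0.250 and 0.634 ± 0.384 FPKM in knockout and control, and the groups overlapped. Actl6a-204, a retained-intron fragment of a subunit gene of TIP60 and other remodelling complexes, averaged 0.586 ± 0.203 and 0.185 ± 0.150 FPKM (SD, n = 4 per group). With Kdm1a-205, Hdac1-207 and Kat6b-205 this makes 4 retained-intron transcripts in the lists, each higher in the knockout. Of the 14 protein-coding ones in the lists, 3 were higher and 11 lower. Over all listed transcripts, 59.7% of retained-intron and 48% of protein-coding ones were higher. The lower coding ones include Jade2-203, of the targeted gene, and transcripts of Jade3, Zmym3 and Ep400. Models of the Jade2 locus without a symbol, some of them higher in the knockout, are not in the lists. The higher coding ones include another Ep400 transcript. Jade2, Jade3, Zmym3, Ep400, Kdm1a and Hdac1 were chosen for being listed, so nothing is read from these counts.

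Among 18 deacetylases and sirtuins 4 were listed, and all but Hdac1 were lower. Hdac5-205, a transcript of a class II deacetylase annotated for nonsense-mediated decay, had 1.35, 1.05, 0.977 and 0.736 FPKM in the knockout replicates in order and 3.19, 2.76, 3.70 and 4.54 FPKM in control replicates 1 to 4. The lowest control was well above the highest knockout. Hdac7-202 averaged 0.235 ± 0.0995 and 0.531 ± 0.247 FPKM and Hdac9-203 0.190 ± 0.220 and 0.526 ± 0.261 FPKM in knockout and control, with overlapping ranges. The NuRD and SIN3 complexes had 2 of 25 listed, Hdac1 and Mta3. Mta3-202 averaged 0.646 ± 0.335 FPKM in knockout libraries and 0.156 ± 0.0400 FPKM in controls (SD, n = 4 per group). Of 18 methyltransferase and demethylase genes of histone H3 lysine 4, Kdm1a, Kmt2e and Kdm5c were listed. Kmt2e-201 averaged 2.15 ± 1.28 and 5.46 ± 1.10 FPKM in knockout and control, and Kmt2e-205 averaged 0.868 ± 0.196 and 0.369 ± 0.704 FPKM (SD, n = 4 per group). Of these 14 transcripts outside the 6 genes and Jade2, 3 had groups that did not overlap (Hdac5-205, Mta3-202 and Kmt2e-201), against 36.1% of all listed transcripts.

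**Figure D4:**
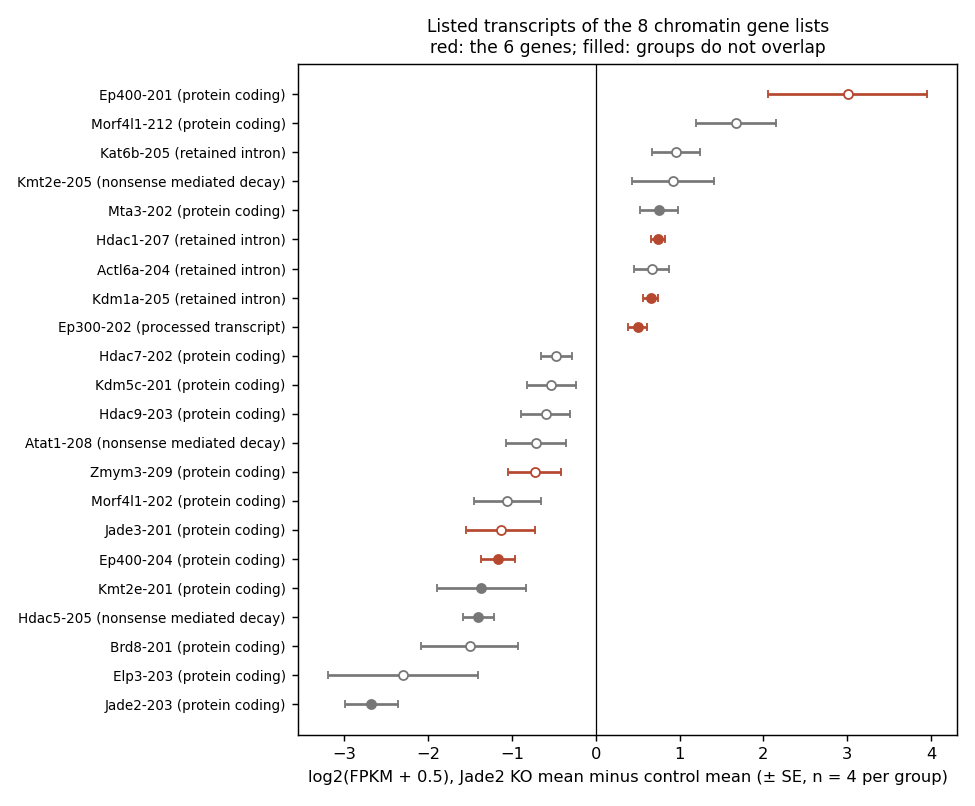
Difference between the knockout and control means on the log2(FPKM + 0.5) scale, with its SE, for the 22 listed transcripts of the 8 chromatin gene lists (n = 4 per group). Red marks the 6 genes and filled points mark groups that do not overlap, which holds for 8 of the 22 and for 36.1% of all listed transcripts.

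The listed transcripts most like each of the 7 over the 8 libraries were found by Pearson's r of log2(FPKM + 0.5), which takes in the difference between the groups. The r after removal of the group means is given beside it. Both are descriptions. Ep400-201 was most like Clk1-211 (r = 0.999, 1.00 after removal), of a kinase of splicing factors, and Ryr2-203 (0.996 and 0.99), of a calcium release channel. These transcripts too were near 0 in control replicates 1 to 3 and high in control replicate 4, at 3.17 and 6.77 FPKM. Ep400-204 was most like the unnamed model MERGE.14340.4 (0.983 and 0.90) and Cox7b-203 (0.978 and 0.85), of a respiratory chain subunit. Jade3-201 was most like D330050G23Rik-202 (0.985 and 0.98) and Eif2d-202 (0.977 and 0.95), which were also near 0 in knockout replicates 1, 3 and 4 and at 0.678 and 3.34 FPKM in knockout replicate 2. Hdac1-207 was most like Dis3l-203 (0.991 and 0.87) and MERGE.12388.2 (0.987 and 0.92). Kdm1a-205 was most like MERGE.9093.4 (0.969 and 0.65) and Zfp639-205 (0.965 and 0.61). Ep300-202 was most like Begain-201 (0.969 and 0.87) and Pou2f2-203 (0.968 and 0.91), and Zmym3-209 was most like Pccb-202 (0.935 and 0.89) and Kdm2b-201 (0.933 and 0.87).

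Markers of other cells were listed as well. Of 50 such markers 11 had listed transcripts, where 4.34% of all protein-coding genes did. Vascular, mural and meningeal genes (Acta2, Col1a2, Ly6c1, Serping1 and Tagln) were 5 of 9, each higher in the knockout. Of all protein-coding genes 2.30% had a higher transcript. The marker lists were chosen with earlier results of these data known. The protein-coding genes were not limited to those expressed in hippocampus, so nothing is read from these counts. All these sums are over transcripts listed for a difference on the same contrast. The vascular, mural and meningeal sum ranged from 14.0 to 22.9 FPKM in the knockout libraries and from 2.13 to 14.6 FPKM in the controls. Genes of oligodendrocytes and their precursors (Lhfpl3, Mag and Plekhb1) were 3 of 8, with 3 higher and 1 lower transcript. These summed to between 40.1 and 78.5 FPKM in the knockout and between 18.3 and 29.4 FPKM in the control. Csf1r, 1 of 6 microglia markers, ranged from 0.0140 to 1.57 FPKM in the knockout and from 1.19 to 21.3 FPKM in the control. Lamp5 and Prkcd of neighbouring regions had 2 higher and 2 lower transcripts. Their sum ranged from 11.1 to 50.9 FPKM in the knockout and from 8.52 to 12.8 FPKM in the control. Interneuron, astrocyte, choroid plexus and ependymal markers had no listed transcript. The part of cell makeup in the chromatin transcripts was not tested.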

How the data were processed

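Per the labels' protocols, Trizol was used for RNA and a NEBNext Ultra kit for the libraries. HISAT2, Cuffdiff and the build mm10 are named in the submitters' processing notes. The deposited abundances carry no unit and were read as FPKM for that reason. The deposited log2 fold changes, p-values and adjusted p-values are the authors' own, and the sources used here do not give their test. Library columns were matched to samples by group and replicate number.

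Group means, SDs and the difference of mean log2(FPKM + 0.5) with its SE were computed in Python 3.11.15 with numpy 2.4.6 and pandas 2.3.3, and figures with matplotlib 3.10.9. For low transcripts this scale makes a change look smaller. Groups were called not overlapping when every library of one lay above every library of the other. The code was tested on simulated data with 200 changed rows. Transcript structures and sequences are from GENCODE M21, in which 1118 of 1136 matched transcripts had identical coordinates. No filter on low values was used.

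The 6 genes, the gene lists and the alternatives (other constants, scalings, filters and left-out libraries) were chosen with earlier results of these data known. Named transcripts are those of the 6 genes, Jade2 as a check, up to 6 listed genes per list by smallest deposited p, the listed marker genes, and the 2 most similar transcripts of each of the 7.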

Additional observations from a re-analysis of the deposited data

Results flagged for a closer look

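In a group of 4 libraries, 1 was taken as far from the other 3 when its gap to the nearest, as a share of the group's range, passed Dixon's critical value. This held for 7 of 46 groups of chromatin transcripts and Ep400 sums examined, where chance flags about 1 in 20. That rate is for groups not selected on their values, and these transcripts were selected and often listed at 0. For Jade3-201 the gap share was 1 in the knockout, where replicate 2 stood at 0.791 FPKM and the others were listed at 0, and 0.887 in the control, where replicate 1 stood at 1.75 FPKM. For Ep400-201 it was 0.992 in the control, where replicate 4 stood at 6.57 FPKM, and for its share of the Ep400 sum, which is the same observation, 0.987. Control replicate 4 was also apart for Morf4l1-212 (1, at 1.29 FPKM with the others listed at 0) and for Hdac9-203 (0.944, at 0.916 FPKM). For Kmt2e-205 the gap share was 0.964, with control replicate 1 at 1.42 FPKM and the others at 0.0508 FPKM or lower.

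Control replicate 4 accounts for 4 of these 7 groups. Over the whole list, leaving it out added 185 transcripts to those whose groups did not overlap. The other libraries left out in turn added 142 to 189, and control replicate 2 also added 185.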

How the results depend on the processing

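Each of the 7 transcript differences and the Ep400 sum kept its sign under 2 other added constants, 2 scalings and every left-out library. Of these 96 recomputed differences, 8 moved by more than the SD between libraries, all 8 with another added constant. With a constant of 0.1 the log2 difference was 1.05 for Kdm1a-205, 1.22 for Hdac1-207, 0.89 for Ep300-202 and 4.53 for Ep400-201, and with a constant of 1 it was 0.45, 0.50 and 0.32 for the first 3. Left-out libraries gave a range of 4 to 6 transcripts whose groups did not overlap, against 4 in all libraries, with 6 without knockout replicate 3. Over all listed transcripts the share was 44.6% to 47.3% with a library left out and 45.0% without that one, against 36.1%. With a mean of at least 1 FPKM required, the count was 1, because 3 of the 7 pass that filter, and over all transcripts passing it the share was 31.7%. The number of chromatin list genes with a listed transcript was 19, and 12 with a mean of at least 0.5 FPKM required. No paired analysis was possible because the values come from no test, and no label ties a library of one group to one of the other. Depth, and so counting error, is unknown, and most of these transcripts lie near or under 1 FPKM.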

Other observations

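Loci with listed transcripts in both directions were common. Of 214 loci with 2 or more listed transcripts, 138 had at least 1 higher and 1 lower in the knockout, or 64.5%. Ep400 is one of these loci, and Morf4l1 and Kmt2e are others among the chromatin lists. The summed listed transcripts of Morf4l1 averaged 6.81 ± 1.35 FPKM over knockouts and 12.2 ± 4.83 FPKM over controls (SD, n = 4 per group), with overlapping ranges of 5.13 to 8.05 and 6.60 to 17.6 FPKM. Those of Kmt2e averaged 3.02 ± 1.28 and 5.83 ± 1.73 FPKM (SD, n = 4 per group), and the highest knockout, at 3.91 FPKM, was below the lowest control, at 4.36 FPKM. At Ep400 the sums overlapped.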
